A study of Mus musculus with 9 samples.

Results

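The mRNAs for polyamine synthesis, its feedback control and polyamine breakdown were followed across 9 mouse B cell lymphomas. The 10 genes listed for this group were Odc1, Srm, Sms, Amd1, Azin1, Oaz1, Oaz2, Sat1, Smox and Paox, and all probe sets that the platform annotation assigns to them were taken as members. The array annotation named a probe set for 8 of the 10 genes, 18 probe sets of 45037 on the array, and 8 of the 19324 genes named in all. The levels of Amd1 and Paox were not analysed here. The rule for members uses gene names and no measured value, though the list was drawn up with earlier results of these data known.

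The study compared lymphomas of 2 genotypes. Eμ-Myc lymphomas (n = 4) came from mice with a Myc transgene and no TTP transgene, and double-transgenic lymphomas (n = 5) came from mice that carried Eμ-Myc together with Eμ-TTP-1. The Eμ enhancer of the immunoglobulin heavy chain drives a transgene in the B lineage, so tumours of both groups carry Myc under that control, and TTP (tristetraprolin, gene Zfp36) is a protein that binds AU-rich elements of mRNAs and speeds their decay. Both groups were on a strain background of 94% C57BL/6, the labels call the tumours biological replicates, and no age is given. Total RNA of each tumour was hybridised to 1 Affymetrix mouse array, and levels are given as log2 of the deposited intensity. The median probe set of an array had a linear intensity of 12.16 to 13.35, below the linear intensity of 16 that a log2 value of 4 stands for, and 47.6% to 48.8% of probe sets exceeded a log2 value of 4, below which a probe set is called background here. Precision is set by how few arrays there are.

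Zfp36 read 10.84, 10.20, 11.00 and 10.24 in the Eμ-Myc tumours and 10.85, 9.98, 10.80, 10.34 and 10.79 in the double-transgenic tumours, so the values overlapped and its mRNA does not check the genotype labels. It is not known whether the probes of this gene match the transgene's own transcript. Myc read 13.60 to 14.21 in the Eμ-Myc and 13.78 to 14.15 in the double-transgenic tumours. In bulk tumour RNA, fewer cells of a type and less RNA per cell cannot be told apart. The B cell genes Cd79a and Cd79b read over 13 in all 9 tumours (13.24 to 15.30), while Cd22 was at 6.99 in double-transgenic replicate 2 and at 11.91 to 12.93 in the others.

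Polyamines are small, positively charged molecules that bind nucleic acids and ribosomes and are needed for growth. Ornithine decarboxylase, the product of Odc1, makes putrescine from ornithine and is rate-limiting. Spermidine synthase (Srm) and then spermine synthase (Sms) add aminopropyl groups, which come from decarboxylated S-adenosylmethionine made by the product of Amd1. Antizymes (Oaz1, Oaz2) bind ornithine decarboxylase and deliver it to the proteasome, and their own translation needs a ribosomal frameshift that polyamines promote. Antizyme inhibitor (Azin1) resembles ornithine decarboxylase without its activity and takes up antizyme. Sat1 acetylates spermidine and spermine for oxidation by Paox or export, and Smox oxidises spermine directly back to spermidine. Odc1 is a direct target of MYC, and ornithine decarboxylase is known to support lymphoma development in Eμ-Myc mice.

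No polyamine gene passed the test between the genotypes. In the fit of 1 probe set per gene, 7 of the 8 genes could be tested, since the 3 Sms probe sets are shared with a pseudogene and were tested as probe sets. Of these 7 genes, 0 had an adjusted p under 0.05 (limma with Benjamini-Hochberg adjustment over 10172 genes), against 0 of 10172 genes or 0.0% in all, and 0 had an unadjusted p under 0.05, against 5.67% of all genes. None of the 7 genes had groups that did not overlap, against 1.64% of all genes. Subtracting the Eμ-Myc mean from the double-transgenic mean gave a log2 difference above 0 for 5 genes and below 0 for 2, with a median of 0.12 beside 0.05 over all genes tested. That median was 0.018 without double-transgenic replicate 2, 0.20 without double-transgenic replicate 1, 0.19 without Eμ-Myc replicate 4 and 0.072 with the mean of a gene's probe sets. Of the 18 probe sets, 17 passed the filter on low values. Among these, 0 had an adjusted p under 0.05 in limma's fit of 21785 probe sets (0.0% in all) and 1, for Oaz2, had an unadjusted p under 0.05, against 5.89% of all probe sets (4.01% in its direction, higher in the double-transgenic group). None of the 17 had groups without overlap, against 1.78% of all probe sets.

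**Figure D1:**
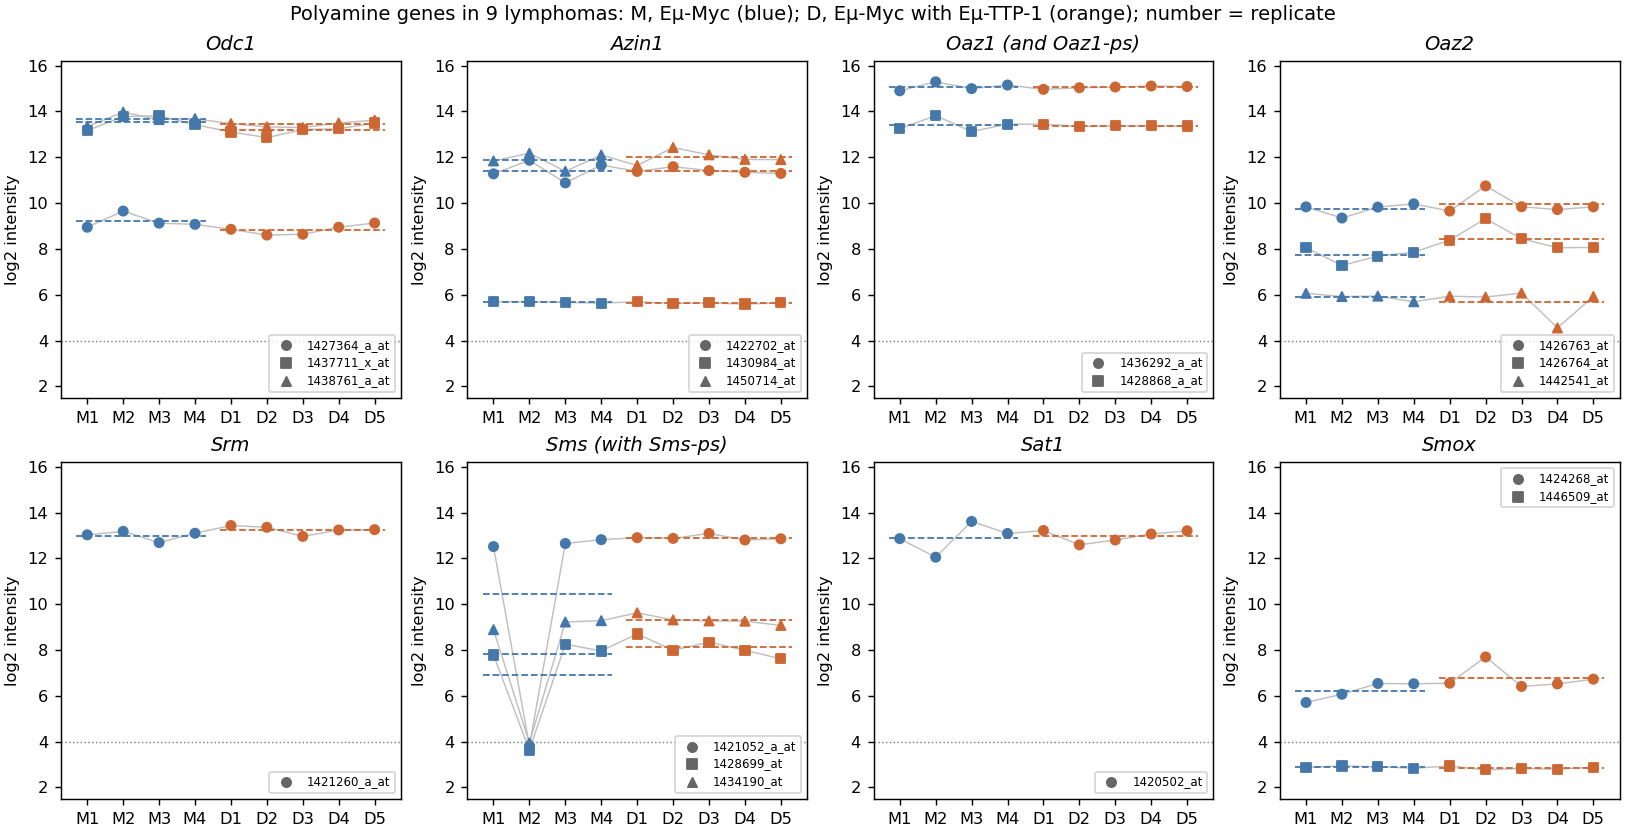
Log2 intensity (vertical axis) of all 18 polyamine probe sets in the 9 lymphomas (horizontal axis), 1 panel per gene, with M for Eμ-Myc (blue) and D for double-transgenic tumours (orange) and the number for the replicate. Marker shapes separate probe sets, dashed lines are group means and the dotted line is the log2 value of 4; the 3 Sms probe sets fall to between 3.63 and 3.95 in M2 and stay at 7.62 to 13.09 elsewhere.

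Odc1, the gene of the rate-limiting enzyme, was at 13.35, 13.97, 13.65 and 13.69 in Eμ-Myc replicates 1 to 4 and at 13.47, 13.33, 13.30, 13.50 and 13.62 in double-transgenic replicates 1 to 5 on its brightest probe set, 1438761_a_at. The groups overlapped, with Eμ-Myc replicate 2 at the top. Group means were 13.66 ± 0.25 (SD, n = 4) and 13.44 ± 0.13 (SD, n = 5). They differed by -0.22, standard error 0.14, (limma adjusted p = 0.867, exact permutation p = 0.127, two-sided). The 95% interval ran from -0.55 to 0.11, which leaves room for a level between 0.683-fold and 1.08-fold of the Eμ-Myc level. Without Eμ-Myc replicate 2 the difference was -0.12.

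The other Odc1 probe sets lay lower in the double-transgenic group as well. Probe set 1427364_a_at read 8.95, 9.65, 9.13 and 9.07 in Eμ-Myc and 8.86, 8.61, 8.64, 8.95 and 9.13 in double-transgenic tumours, a log2 difference of -0.36 (two-sided exact permutation p = 0.0873, 95% interval -0.77 to 0.04), and -0.21 without Eμ-Myc replicate 2. For 1437711_x_at the values were 13.17, 13.78, 13.82 and 13.42 against 13.11, 12.86, 13.21, 13.24 and 13.50, a log2 difference of -0.36 (two-sided exact permutation p = 0.103, 95% interval -0.78 to 0.05). The 3 probe sets share the same RNA and correlated with each other over the 9 tumours at r from 0.833 to 0.948, a description of their agreement rather than 3 separate tests. In all 3 the groups overlapped, and none passed the adjusted threshold. The genes of chromosome 12, where Odc1 lies, stood a median 0.34 above their own medians in Eμ-Myc replicate 3 and between -0.07 and 0.00 of them in the other tumours; whether that bears on Odc1 was not tested.

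Promoters of the 8 members with an entry in the RefSeq promoter table (GRCm38.p6) were searched on both strands for CACGTG, the core E-box that MYC with MAX prefers, and for CACGCG, a variant that they also bind, added after the promoters were seen. Srm and Azin1 had no entry. The search covered 300 bases, 250 before and 50 after an annotated start. Odc1 is shown as the known MYC target and Sms as the member whose level differed most between tumours. Each run is the 250 bases before the start, read 5′ to 3′ on the gene's strand, with matches in capitals. Odc1 lies on the plus strand at chr12:17544623-17544872 and the Sms window on the minus strand at chrX:157492288-157492537.
Odc1: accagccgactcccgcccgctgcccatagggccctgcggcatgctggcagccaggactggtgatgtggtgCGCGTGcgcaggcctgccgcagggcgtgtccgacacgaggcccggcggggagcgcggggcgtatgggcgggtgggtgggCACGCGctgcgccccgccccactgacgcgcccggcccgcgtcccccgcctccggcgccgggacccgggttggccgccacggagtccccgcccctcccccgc
Sms: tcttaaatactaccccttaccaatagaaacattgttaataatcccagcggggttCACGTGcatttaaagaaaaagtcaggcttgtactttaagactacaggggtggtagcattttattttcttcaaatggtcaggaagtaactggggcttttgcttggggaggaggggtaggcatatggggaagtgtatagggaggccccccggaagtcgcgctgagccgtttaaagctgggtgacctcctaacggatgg
The Odc1 window held the variant at 180 bases before the start, as CGCGTG, which is CACGCG on the other strand, and again at 101 bases, and no CACGTG. The E-boxes known for MYC at Odc1 lie in its first intron, outside this window. Sms held CACGTG 196 bases before the start shown and, in the window of a second annotated start, CACGCG at 140 bases. Oaz1 held CACGCG 212 bases before its start, and the windows of Oaz2, Sat1, Smox, Amd1 and Paox held neither. Over all 32817 windows of the same length in the table, 7.15% held CACGTG and 9.26% held CACGCG on either strand, and a match describes letters, not binding.

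Azin1, whose product takes antizyme away from ornithine decarboxylase, read 11.84, 12.18, 11.39 and 12.10 in Eμ-Myc and 11.64, 12.43, 12.11, 11.91 and 11.90 in double-transgenic tumours on probe set 1450714_at. The lowest value was that of Eμ-Myc replicate 3 and the highest that of double-transgenic replicate 2, and the groups overlapped. The log2 difference was 0.12 (95% interval -0.36 to 0.60, limma adjusted p = 0.959, exact permutation p = 0.587, two-sided). On 1422702_at the tumours read 11.28, 11.87, 10.88 and 11.66 against 11.38, 11.59, 11.42, 11.35 and 11.30, a log2 difference of -0.02. Eμ-Myc replicate 3 was again the lowest. The spread was wider among Eμ-Myc tumours (SD 0.44, n = 4) than among double-transgenic ones (SD 0.11, n = 5) on this probe set; that difference in spread was not tested. A dimmer probe set, 1430984_at, stayed between 5.60 and 5.70 in all 9 tumours and did not follow the other two (r = -0.02 with 1422702_at and -0.35 with 1450714_at, n = 9). Genes of chromosome 15, where Azin1 lies, stood a median 0.21 above their own medians in double-transgenic replicate 3. In the other tumours that median lay between -0.08 and 0.08, and whether it bears on Azin1 was not tested.

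Oaz1, the main antizyme gene, was the steadiest member among those tested as genes. Its probe set 1436292_a_at read 14.90, 15.29, 15.00 and 15.15 in Eμ-Myc and 14.97, 15.04, 15.07, 15.11 and 15.09 in double-transgenic tumours. The whole span over 9 tumours was 0.39 on the log2 scale, and its SD was at the 4.4th percentile of all probe sets tested. Its log2 difference was -0.03 (95% interval -0.29 to 0.22, limma adjusted p = 0.982, exact permutation p = 0.698, two-sided), so a change outside 0.818-fold to 1.17-fold would lie beyond the interval. The probe set 1428868_a_at, shared with the pseudogene Oaz1-ps, read 13.24, 13.82, 13.12 and 13.45 against 13.45, 13.35, 13.37, 13.37 and 13.36, a log2 difference of -0.03. Eμ-Myc replicate 2 was the highest tumour on both.

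Oaz2, the second antizyme gene, gave the member probe set with the lowest unadjusted p, and its probe sets agreed neither on the size nor on the direction of the difference. On 1426764_at the tumours read 8.06, 7.28, 7.69 and 7.86 in Eμ-Myc and 8.39, 9.32, 8.44, 8.06 and 8.06 in the double-transgenic group. The groups only touched, since the highest Eμ-Myc value equalled the lowest double-transgenic one. The log2 difference was 0.73 with a standard error of 0.28 and a 95% interval of 0.10 to 1.37, at an unadjusted limma p of 0.0287 and an adjusted p of 0.825 (exact permutation p = 0.0397, two-sided).

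On the brighter 1426763_at, which represents Oaz2 in the gene fit, the values were 9.84, 9.35, 9.83 and 9.97 against 9.65, 10.75, 9.84, 9.72 and 9.84. Apart from Eμ-Myc replicate 2, which was low, and double-transgenic replicate 2, which was high, the tumours of both groups lay between 9.65 and 9.97. The log2 difference was 0.22 (95% interval -0.34 to 0.78, limma adjusted p = 0.921, exact permutation p = 0.524, two-sided), and it was 0.02 without double-transgenic replicate 2 and 0.08 without Eμ-Myc replicate 2. The third probe set, 1442541_at, read 5.69 to 6.07 in 8 tumours and 4.55 in double-transgenic replicate 4. Its log2 difference was -0.23, and 0.05 without that tumour. It followed neither of the others (r = 0.10 and 0.08, n = 9), whereas these correlated at r = 0.84.

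Srm, which makes spermidine from putrescine, read 13.03, 13.18, 12.69 and 13.10 in Eμ-Myc and 13.43, 13.36, 12.96, 13.24 and 13.25 in double-transgenic tumours. Of the 5 double-transgenic values, 4 lay above the highest Eμ-Myc value, and replicate 3 lay inside the Eμ-Myc range. Means were 13.00 ± 0.22 (SD, n = 4) and 13.25 ± 0.18 (SD, n = 5). The log2 difference of 0.25 had a standard error of 0.15 and a 95% interval of -0.08 to 0.58 (limma adjusted p = 0.860, exact permutation p = 0.103, two-sided). Without Eμ-Myc replicate 3, the lowest tumour, the difference was 0.15.

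Sms, which makes spermine from spermidine, was at background in a single tumour and abundant in all others. On 1421052_a_at the Eμ-Myc tumours read 12.52, 3.82, 12.65 and 12.82 and the double-transgenic tumours 12.90, 12.87, 13.09, 12.80 and 12.86. The other Sms probe sets also had that tumour at background. Probe set 1434190_at read 8.89, 3.95, 9.22 and 9.28 against 9.62, 9.31, 9.27, 9.26 and 9.08. On 1428699_at the values were 7.78, 3.63, 8.25 and 7.96 against 8.70, 7.99, 8.34, 7.99 and 7.62. All 3 carry the pseudogene Sms-ps beside Sms in the annotation, so the signal of both was under the log2 value of 4 in Eμ-Myc replicate 2.

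Against the median of the 8 other tumours, Sms in Eμ-Myc replicate 2 was lower by a ratio of 520, 39.9 and 20.5 on the 3 probe sets. These ratios have a background value below, so the brightest probe set gives the largest ratio. The other 8 tumours spanned 12.52 to 13.09 on 1421052_a_at.

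The size of the genotype difference of Sms rested on that tumour. With all 9 tumours the log2 difference was 2.46 on 1421052_a_at (standard error 1.74, 95% interval -1.50 to 6.41, limma adjusted p = 0.853, exact permutation p = 0.0159, two-sided). Without Eμ-Myc replicate 2 it was 0.24 (limma adjusted p = 0.884). On 1434190_at it went from 1.47 to 0.18 and on 1428699_at from 1.22 to 0.13. The permutation p does not come from that tumour alone, since it also depends on the order of the others. The remaining Eμ-Myc values on 1421052_a_at (12.52, 12.65 and 12.82) lay low among them, beside a lowest double-transgenic value of 12.80. That p is not adjusted.

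Such a pattern was uncommon on the array. By a rule chosen after the values were seen, a probe set under 5 in 1 tumour and over 7 in the 8 others, 64 of 45037 probe sets were off in a single tumour. Only the 21785 probe sets that passed the filter on low values could meet that rule. Eμ-Myc replicate 2 held 12 of these, and 3 of the 12 were the Sms probe sets, while double-transgenic replicate 2 held 33. The opposite pattern, over 10 in 1 tumour and under 5 in the 8 others, was shown by 32 probe sets in all and by 6 in Eμ-Myc replicate 2.

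One of those 6 belongs to Phex, the closest gene with a probe set on one side of Sms on chromosome X. Phex encodes an endopeptidase of phosphate handling in bone. Its probe set 1421979_at read 12.45 in that tumour, with 2.42 to 4.55 in the other 8, and a second Phex probe set, 1450445_at, read 3.23 against 2.19 to 2.26. Mbtps2, the next gene on the other side, read 11.08 in that tumour and 10.76 to 11.50 in the others. Prdx4 (12.07 against 12.04 to 12.88) and Acot9 (10.43 against 10.11 to 10.84), on the far side of Phex, were also within the range of the other tumours. Further out, Sat1 was below that range (12.05 against 12.59 to 13.61) and Rps6ka3 above it (12.36 against 11.26 to 12.06). Over the 298 tested genes of chromosome X, the median deviation from each gene's own median was -0.03 in this tumour. Xist, the RNA of the inactive X chromosome, read 13.72 there and also over 10 in 3 further tumours (Eμ-Myc 3, double-transgenic 2 and 5). These 3 read 12.65 to 12.87 for Sms on 1421052_a_at. Eif2s3y, a gene of the Y chromosome, read 3.39 to 3.77 on 1417210_at in the tumours with high Xist and 12.12 to 12.49 in the others. By these genes each genotype group appears to hold tumours of both sexes, which the labels do not give. Copy number and transcript structure were not measured here, and the genes around Sms were named after their values were seen.

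**Figure D2:**
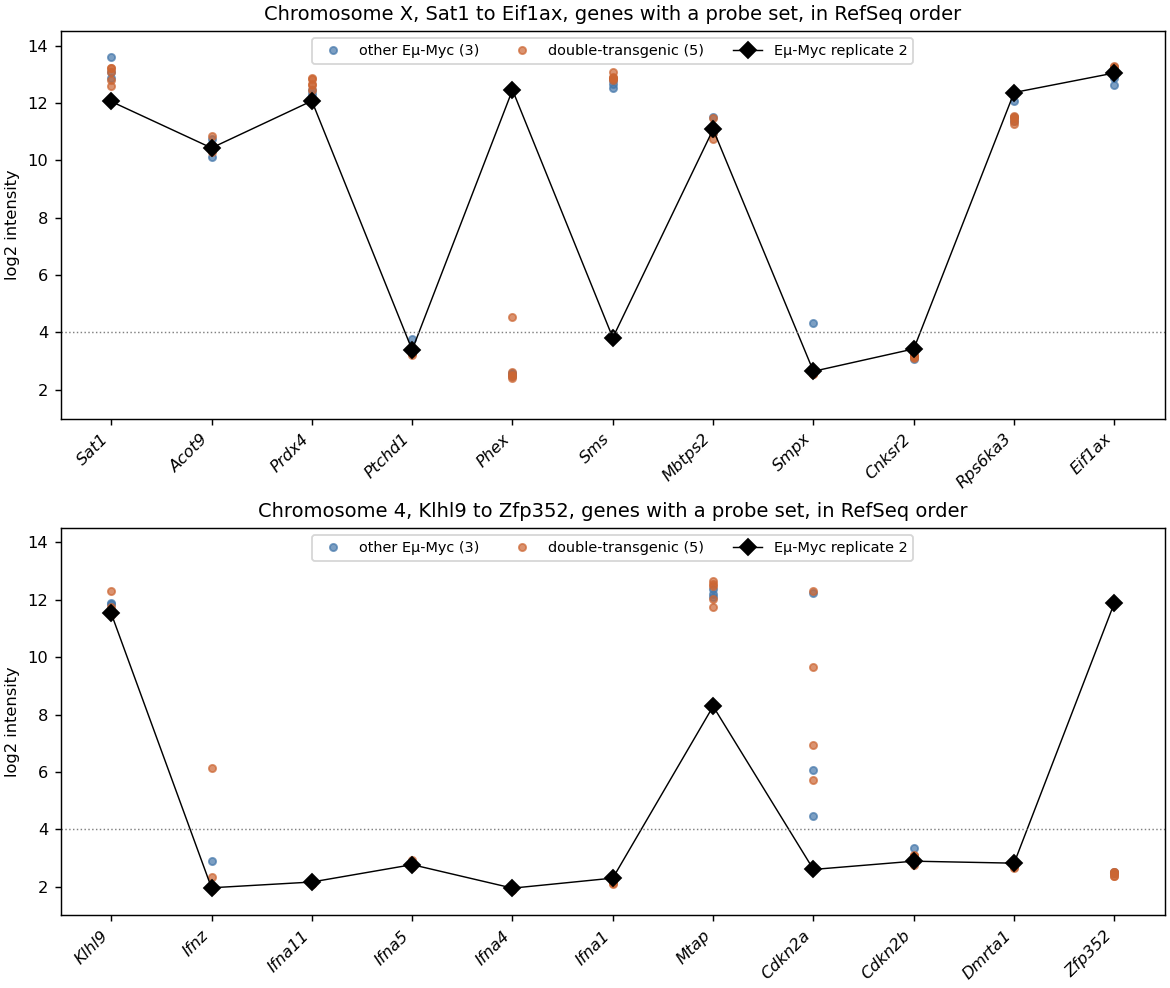
Log2 intensity (vertical axis) of the brightest probe set of each gene in RefSeq gene order (horizontal axis, not to distance) around Sms on chromosome X (top) and Mtap on chromosome 4 (bottom), with Eμ-Myc replicate 2 as black diamonds joined by a line, the other Eμ-Myc tumours in blue and the double-transgenic tumours in orange. In Eμ-Myc replicate 2, Sms is at 3.82 where the other tumours are at 12.52 to 13.09, Phex beside it is at 12.45, and Mtap is at 8.29 where the others are at 11.77 to 12.67.

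The same tumour was low in Mtap, the phosphorylase that salvages methylthioadenosine, the by-product of both Srm and Sms. Mtap on 1451346_at read 12.11, 8.29, 12.19 and 12.39 in Eμ-Myc and 12.67, 11.77, 12.49, 12.55 and 12.02 in double-transgenic tumours, a ratio of 16.1 between the median of the other 8 tumours and Eμ-Myc replicate 2. The other 3 Mtap probe sets gave ratios of 9.84, 18.4 and 41.6, the last with a value of 4.01 in that tumour. Mtap stayed above the log2 value of 4 on all 4 probe sets, unlike Sms.

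Cdkn2a, the gene next to Mtap on chromosome 4 and a tumour suppressor locus often lost in Eμ-Myc lymphoma, read 12.24, 2.60, 6.06 and 4.46 in Eμ-Myc and 2.62, 6.94, 12.32, 5.73 and 9.65 in double-transgenic tumours. It was thus at background in 2 tumours, of which double-transgenic replicate 1 kept Mtap at 12.67. Zfp352, which follows Cdkn2a, Cdkn2b and Dmrta1 among the genes with a probe set, read 11.90 in this tumour and 2.37 to 2.53 elsewhere. As around Sms, these neighbours were named after their values were seen. The cause of their levels was not tested.

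Sat1, which starts the breakdown of spermidine and spermine, read 12.86, 12.05, 13.61 and 13.09 in Eμ-Myc and 13.22, 12.59, 12.80, 13.06 and 13.21 in double-transgenic tumours. The Eμ-Myc group held both the lowest tumour, replicate 2, and the highest, replicate 3. The log2 difference was 0.07 (95% interval -0.60 to 0.75, limma adjusted p = 0.987, exact permutation p = 0.849, two-sided) and turned to -0.21 without Eμ-Myc replicate 2. Sat1 lies on chromosome X as Sms does, with Acot9, Prdx4 and Phex among the genes between them.

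Smox, whose enzyme turns spermine back to spermidine, read 5.71, 6.07, 6.54 and 6.53 in Eμ-Myc and 6.55, 7.70, 6.41, 6.52 and 6.73 in double-transgenic tumours on 1424268_at. Double-transgenic replicate 2 stood apart at the top, and 4 of the 5 double-transgenic values lay between 6.41 and 6.73, beside 6.53 and 6.54 in Eμ-Myc. Its log2 difference of 0.57 was the largest of the 7 genes in the gene fit, with a standard error of 0.30 and a 95% interval of -0.11 to 1.25 (limma adjusted p = 0.860, exact permutation p = 0.111, two-sided). Without double-transgenic replicate 2 it was 0.34. The second Smox probe set, 1446509_at, was at background in all 9 tumours, between 2.77 and 2.94.

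**Figure D3:**
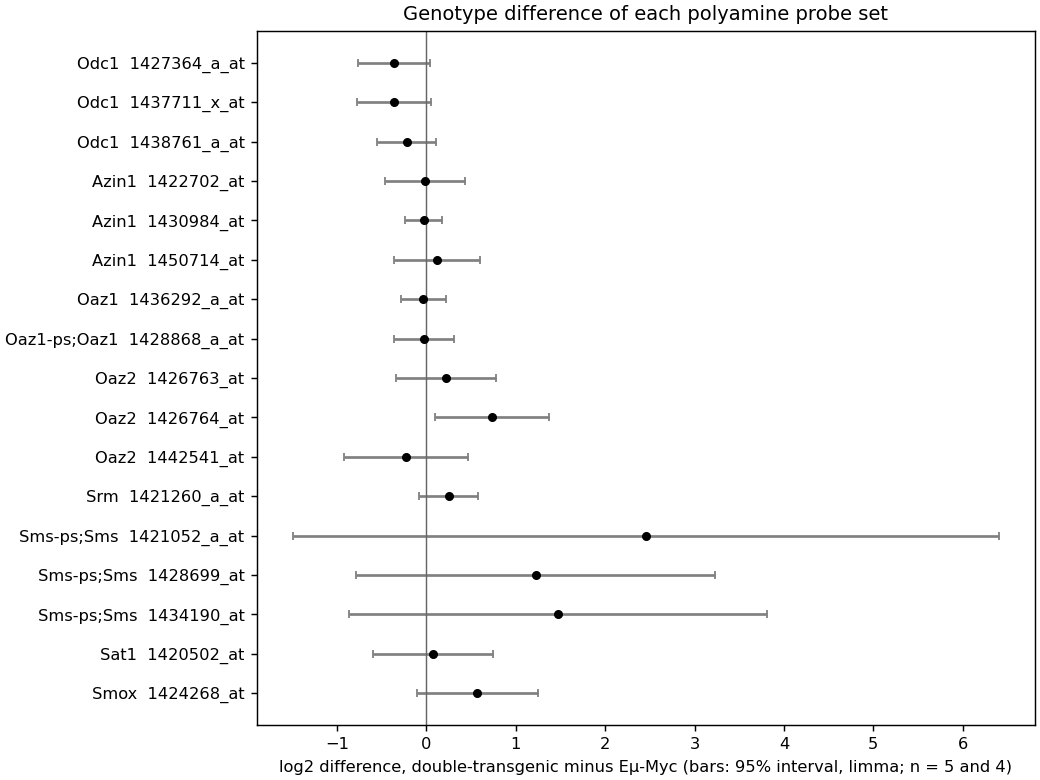
Log2 difference between double-transgenic (n = 5) and Eμ-Myc (n = 4) lymphomas (horizontal axis) for each polyamine probe set that passed the filter on low values (vertical axis), with points for the difference and bars for its 95% interval from limma. Every interval but that of the Oaz2 probe set 1426764_at (0.10 to 1.37) includes 0, and the Sms intervals are wide because 1 Eμ-Myc tumour lies at background.

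Genes around the pathway were taken as a list of 28, from arginine and methionine supply to methylthioadenosine salvage, hypusine formation and polyamine transport. The annotation named 25 of them on the array and 17 passed the filter. Of the 17, 0 passed the threshold (limma adjusted p under 0.05), 0 had an unadjusted p under 0.05, 10 were higher and 7 lower in the double-transgenic group, and the median log2 difference was 0.05, as over all genes tested. The highest differences were those of Mtap (1.05, standard error 0.80, and 0.07 without Eμ-Myc replicate 2) and of Mri1, an isomerase of the same salvage route (0.23, 95% interval -0.17 to 0.64). The lowest were those of Eif5a2 (-0.46, 95% interval -2.44 to 1.53) and Enoph1, a further salvage enzyme (-0.22, 95% interval -0.60 to 0.15). Eif5a2 encodes a form of eIF5A, the translation factor whose hypusine residue is built from spermidine, and it read between 3.19 and 6.95 with wide overlap of the groups. Its abundant relative Eif5a read 15.95 to 16.26 in all 9 tumours.

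Agmat, Azin2, Oaz3, Sat2 and Satl1, relatives or side routes of the members, were at background in all 9 tumours. Arg1, an arginase that makes ornithine, was named after its values were seen: among Eμ-Myc tumours it was at 11.40 for replicate 2 and at 6.49 for replicate 4, and the other 7 tumours read 1.98 to 2.04. Slc18b1, a vesicular polyamine transporter, was chosen in the same way and read 6.57 in Eμ-Myc replicate 2, 4.81 in double-transgenic replicate 5 and 2.40 to 2.80 in the others. Neither gene passed the filter on low values, so neither was tested.

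Eμ-Myc replicate 2 stood at an end of the range for more member probe sets than any other tumour. Over the 14 member probe sets that passed the filter and are not of Sms, Eμ-Myc replicate 2 was the highest tumour on 5 and the lowest on 3, which is 57.1% of them, against 23.8% of all probe sets tested. It was highest for Odc1 (1427364_a_at and 1438761_a_at), Azin1 (1422702_at) and both Oaz1 probe sets, and lowest for Oaz2 (1426763_at and 1426764_at) and Sat1. Double-transgenic replicate 2 was highest on 4 (Smox, Azin1 1450714_at and the same Oaz2 probe sets) and lowest on 2 (Odc1 1427364_a_at and 1437711_x_at), or 42.9% against 33.7% of all, and Eμ-Myc replicate 3 was at an end for 42.9% against 26.4%. The share over all probe sets was itself highest in double-transgenic replicate 2, at 33.7%. Eμ-Myc replicate 4 and double-transgenic replicate 5 were at an end for none. Probe sets of 1 gene share their RNA and target, so these counts are fewer than 14 independent values; they are given without a test.

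**Figure D4:**
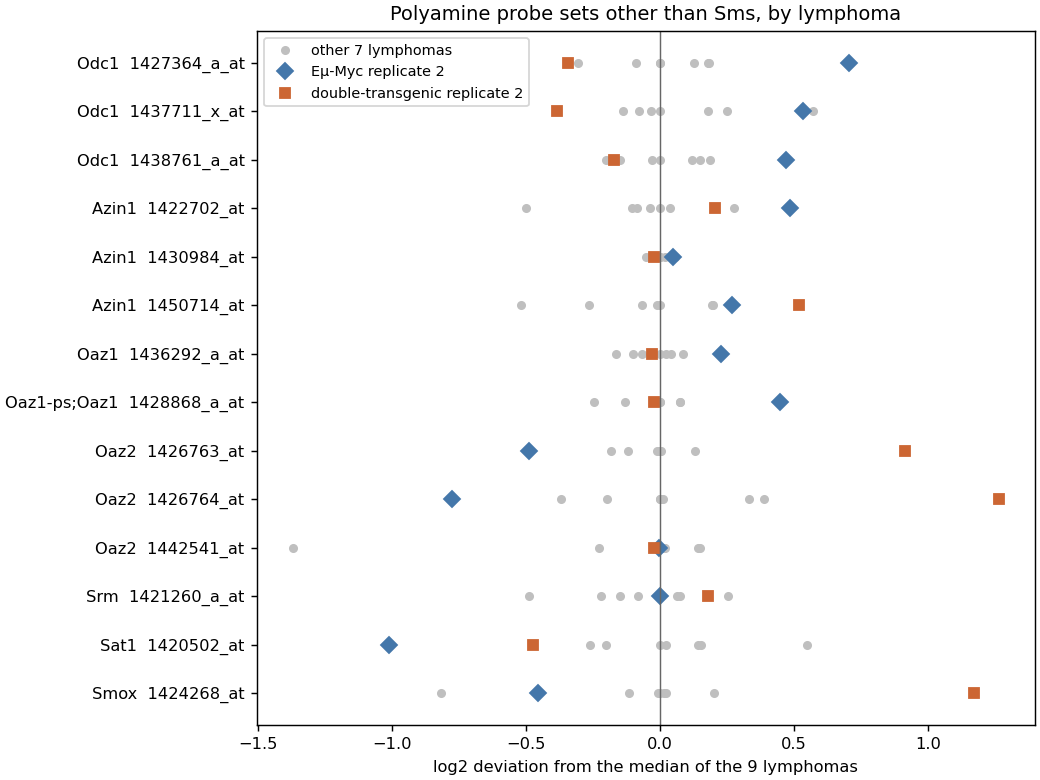
Deviation of each tumour from the median of the 9 lymphomas on the log2 scale (horizontal axis) for the 14 polyamine probe sets other than Sms that passed the filter (vertical axis), with Eμ-Myc replicate 2 as blue diamonds, double-transgenic replicate 2 as orange squares and the other 7 tumours in grey. Eμ-Myc replicate 2 lies far right for Odc1 and far left for Oaz2 (1426763_at, 1426764_at) and Sat1, and double-transgenic replicate 2 lies on the opposite side for Odc1 and those Oaz2 probe sets.

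Markers of several cell types were read in double-transgenic replicate 2. The mean log2 value of 7 B cell genes was 10.68 there and 11.04 to 12.12 in the other tumours. Low Cd22 (6.99) and Blk (6.64) entered that mean, though Blk was lower still in Eμ-Myc replicate 4 (6.01). Cd79b in double-transgenic replicate 2 (15.30) was the highest of the 9 tumours. The summed intensity of the 7 genes there was 64380, inside the range of 42500 to 81540 over all tumours. The mean of 9 granulocyte genes was 9.74, next to 9.59 in Eμ-Myc replicate 3 and with 3.85 as the lowest tumour. Its stroma and endothelium mean was 10.72, next to 10.67 in Eμ-Myc replicate 4. Summed intensity of the 10 granulocyte genes ranged from 837.2 to 20460 among the Eμ-Myc tumours, and among the double-transgenic tumours from 230.9 to 22710, with no gene of the list at background in all arrays. Summed intensity of 7 T cell genes was 110.7 to 1099 among the Eμ-Myc tumours and, among the double-transgenic ones, 225.0 to 905.6, the highest of these being that of replicate 2, where Thy1 read 9.73. Every other T cell gene in replicate 2 was the lowest of the double-transgenic group, with Cd3d at 3.37, Cd3g at 1.15 and Cd4 at 2.16. The mean log2 value of the 5 T cell genes tested was also lowest there within that group, at 4.599 beside up to 6.194. The sum of replicate 2 therefore rested on Thy1. Of the 7 T cell genes, only Cd3e was at background in all 9 tumours. The part of these cells in the high Oaz2, Smox and Azin1 values of that tumour was not tested. Eμ-Myc replicate 3, with a granulocyte mean of 9.59, read 6.54 for Smox and 9.83 for Oaz2 (1426763_at). Its single granulocyte genes differed from those of double-transgenic replicate 2, with Mpo at 7.62 against 10.78 and Prtn3 at 6.35 against 10.60. Ngp, Camp, Lcn2 and Mmp9 went the other way, with Mmp9 at 10.58 against 4.89. Whether granulocyte RNA bears on Smox or Oaz2 was not tested.

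No correlation of a member with Myc mRNA across the tumours passed the test. Pearson's r with Myc over the 9 tumours ran from -0.52 for Smox to 0.47 for Srm. For Odc1 it was -0.217 (permutation p = 0.573, adjusted p = 0.729) and Spearman's rho was -0.333 (permutation p = 0.385, adjusted p = 0.674). Without the 2 tumours farthest from the median of Myc, r for Odc1 was -0.503, and after the group means were removed it was -0.085. With the group means removed, r with Myc ran from -0.84 for Smox to 0.40 for Srm, with no test. Myc itself varied over only 13.60 to 14.21, which limits any such relation. The adjustment covers the 14 correlations of 7 genes with Myc and with the mitosis genes.

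Against the mean of 19 mitosis genes, r ran from -0.34 for Sat1 to 0.72 for Oaz1. Oaz1 had r = 0.718 (permutation p = 0.0333, adjusted p = 0.464) and rho = 0.8 (permutation p = 0.0138, adjusted p = 0.194), and r was 0.792 without Eμ-Myc replicates 1 and 3, the tumours farthest from the median, and 0.926 after the group means were removed. Odc1 had r = 0.309 (permutation p = 0.409, adjusted p = 0.636) and rho = 0.4 (permutation p = 0.291, adjusted p = 0.636), with r = 0.704 without the same tumours and 0.789 after the group means were removed. None of the 14 passed after adjustment. The mitosis mean was 11.16, 12.37, 11.58 and 12.20 in the Eμ-Myc and 12.14 to 12.29 in the double-transgenic tumours, so its range was set by Eμ-Myc replicates 1 and 3. Within groups it varied far more among the Eμ-Myc tumours, so the coefficients with group means removed rest mainly on those 4. Neither these coefficients nor those without 2 tumours were tested.

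The 5 tested genes whose log2 values were most like those of Odc1 over the 9 tumours, by Pearson's r and with no test, were Snapc1 (0.966), C1d (0.952), Stim2 (0.947), Nrp2 (0.946) and Steap3 (0.941). Their range differed more than their order: Snapc1 read 8.96 to 9.75, and Nrp2 read 6.21 to 10.78. All 5 were highest in Eμ-Myc replicate 2, as Odc1 was. They were picked as the top of 10172 genes over 9 values, so high coefficients are what the rule selects.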

How the data were processed

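The authors deposited 1 table of linear intensity values for 45037 probe sets in 9 arrays; the submitters' processing notes name GCRMA (background correction by probe sequence, quantile normalisation and summary), with a version not given in the sources used here. Normalisation forces similar distributions on the arrays, and values near background carry little information. The plan assumed log2 values; the deposited ones were linear and were log2-transformed with nothing added. Neither scanner output nor detection calls were used here, and no batch is known.

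Of the probe sets, 34945 had 1 gene in the annotation, 932 several and 9160 none listed. Genes were represented by the single-gene probe set of highest mean, and features with a log2 value over 4 in at least 4 of 9 arrays were tested with limma 3.58.1 in R 4.3.3 (lmFit, eBayes, no covariates, two-sided, Benjamini-Hochberg adjustment, threshold 0.05), in 1 fit over 10172 genes and 1 over 21785 probe sets. The script was tested on simulated data. Single values were also tested by exact permutation (two-sided; with 126 possible splits the smallest p is 0.00794); these p-values are not adjusted. Genes named beside the members were Zfp36, Myc, the 2 highest and 2 lowest of the neighbour list and the 5 most like Odc1; others were chosen after their values were seen and are marked so, or are cell type markers. Gene order and promoters are from RefSeq (GRCm38.p6); the files name no build. Members and lists were chosen with earlier results of these data known. Alternatives were other filters, probe set rules, normalisations, variance models, a pseudocount of 16, array weights, the replicate number as a block, each array left out, and Xist state as a covariate. Same-numbered samples did not deviate together (correlations -0.09, 0.09, -0.003 and 0.20), so the numbers were not treated as pairs.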

Additional observations from a re-analysis of the deposited data

Results flagged for a closer look

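Among 46 groups of values, those of the members that passed the filter and of Mtap, Mri1, Eif5a2, Enoph1, Myc and Zfp36, 8 held a tumour that stood apart from the others of its group by Dixon's criterion, where chance gives about 1 in 20, or 2.3. Of these, 4 were in Eμ-Myc replicate 2: the 3 Sms probe sets, at 3.82 on 1421052_a_at (12.52 to 12.82 in the other Eμ-Myc tumours), 3.95 on 1434190_at (8.89 to 9.28) and 3.63 on 1428699_at (7.78 to 8.25), and Mtap at 8.29 (12.11 to 12.39). In double-transgenic replicate 2, Smox was at 7.70 (6.41 to 6.73 in the other double-transgenic tumours) and Oaz2 at 10.75 on 1426763_at (9.65 to 9.84). Oaz2 on 1442541_at was at 4.55 in double-transgenic replicate 4 (5.90 to 6.07). The Oaz1 probe set shared with its pseudogene was at 13.45 in double-transgenic replicate 1 (13.35 to 13.37), a gap of little size in a tight group. The 3 Sms probe sets read the same RNA, and Mtap, Mri1, Eif5a2 and Enoph1 were included for their differences in these data. The 8 are therefore not separate findings, and setting them against 2.3 does not test for an excess.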

How the results depend on the processing

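Over 140 alternative fits of the gene differences, 136 kept direction and side of the threshold and 4 reversed, with a lowest limma adjusted p of 0.695; of 304 for probe sets, 294 kept and 10 reversed (lowest adjusted p 0.637). With array weights, Azin1 was -0.042 in the gene fit and -0.035 in the probe set fit. Leaving out 1 tumour at a time, the difference ran from -0.095 to 0.035 for Oaz1 (-0.12 to 0.11 on the probe set shared with its pseudogene), from -0.21 to 0.31 for Sat1, from -0.043 to 0.22 for Azin1 on 1450714_at, from -0.20 to 0.13 on 1422702_at, and from -0.33 to 0.053 for Oaz2 on 1442541_at; the cause was not tested, beyond the tumours named above. Genes past the threshold numbered 0 to 8 (8 without Eμ-Myc replicate 3, 1 without replicate 4; no member among them) and probe sets 0 to 3 (3 without double-transgenic replicate 5), and the median of the neighbour list ran from -0.032 to 0.14. Correlations ran from -0.38 to 0.19 for Oaz1 with Myc, -0.13 to 0.70 for Srm with Myc, -0.82 to 0.37 for Azin1 with Myc, -0.42 to 0.23 for Sat1 with Myc, -0.37 to 0.18 for Oaz2 with mitosis and -0.0086 to 0.63 for Smox with mitosis. For a list of erythroid marker genes, the median log2 difference was 0.16 over 3 genes tested. It was 3.12 with the mean of probe sets, where only 2 genes remained and the median is their midpoint. In the main fit the differences of the list ran from 0.14 to 6.11, the highest being that of Car2. The value of 3.12 therefore does not describe erythroid genes as a set. Hba-a1 and Alas2 were at background in all tumours, and 0 genes of the list had a limma adjusted p under 0.05 in the main fit. With the replicate number as a block, which the data do not bear out as a pairing, Odc1 was -0.26 (limma adjusted p = 0.852), Azin1 on 1422702_at was 0.012, and 3 probe sets passed the threshold. Double-transgenic replicate 5 has no partner and drops out of that fit, and leaving it out without a block gave the same differences and the same number of probe sets, so nothing here is put down to the block. Smox was 0.26 with the mean of its probe sets, of which 1 is at background. With 4 and 5 tumours, changes of the size that the intervals span remain possible.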
